A study of Rattus norvegicus with 12 samples.

Results

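MiR-1 and miR-133 are the muscle miRNAs, and their levels were read here in sorted cells and whole tissue of the rat medial entorhinal cortex. Of 375 miRNA assays on the card, 4 carried one of the listed names: miR-1 (a mouse assay), rno-miR-1 (a rat assay), miR-133a and miR-133b. MiR-206, the fifth listed name, was not analysed here. The rule that picks the assays uses their names and no measured value.

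MiR-1 and miR-133a genes lie close together and are transcribed together in heart and skeletal muscle, and miR-133b lies beside miR-206 at a separate locus. Muscle transcription factors such as SRF, MEF2 and MyoD drive these loci, miR-1 favours muscle differentiation and miR-133 the growth of muscle precursors. In brain they are scarce, and miR-133b is best known there from midbrain dopamine neurons.

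All samples were total RNA of Long Evans rats. Stellate samples (n = 5) were cells that had taken up the fluorescent tracer DiO, injected into the dentate gyrus of pups on postnatal day 2, and that were sorted as DiO positive on postnatal day 4 or 5. Non-stellate samples (n = 5) were DiO negative cells sorted from the cortex of the injected pups, so they can include other neurons, cells that are not neurons, and stellate cells that the tracer did not reach. Tissue samples (n = 2) were dissected cortex of rats aged 23 days that were not sorted, and no injection is described for them. No genetic change was made in any group. One label field of non-stellate 3 and 5 calls them labelled, against all their other labels. They were kept in the non-stellate group. Tests of the members between the sorted groups were also run without them, and the tissue comparisons and list sums were not.

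Levels are cycle thresholds (Ct), the PCR cycle at which a well passes the detection level, so a lower Ct means more RNA and 1 cycle is 1 log2 unit. A well that never passed was deposited as 40 and is called undetermined. Each sample had 234 to 260 determined miRNA assays in the stellate group, 203 to 241 in the non-stellate group, and 292 and 302 in tissue. The median Ct of the 176 common assays, those determined in every one of the 10 sorted samples, was 28.0 to 29.5 in stellate, 28.9 to 30.9 in non-stellate and 23.7 in both tissue samples. These ranges stand beside every raw Ct given here.

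The mature sequences show how close the members are to each other. They come from RefSeq (rat build GRCr8), 3 of the 4 assays matched a sequence by name, and the seed, bases 2 to 8, through which a miRNA recognises its targets, is in capitals. The target of the mouse miR-1 assay is not among the sequences used here, so the targets of both miR-1 assays could not be compared. MiR-206 is included because it shares the seed of miR-1.
rno-miR-1-3p (Mir1, chr18:2160339-2160360, minus strand): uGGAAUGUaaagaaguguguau
rno-miR-206-3p (Mir206, chr9:30590747-30590768, plus strand): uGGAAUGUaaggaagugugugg
rno-miR-133a-3p (Mir133a1, chr18:2157886-2157907, minus strand): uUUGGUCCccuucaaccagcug
rno-miR-133b-3p (Mir133b, chr9:30594629-30594650, plus strand): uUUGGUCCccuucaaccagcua

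The 4 sequences thus fall into 2 seed groups, GGAAUGU and UUGGUCC. MiR-133a and miR-133b were identical at 21 of 22 bases and differed by G22A, counted from the 5′ end with miR-133a first. MiR-1 and miR-206 differed at 3 of 22 bases, A11G, A21G and U22G, with miR-1 first. The hairpin genes Mir133a1 and Mir1 were 2368 bases apart on chromosome 18, and those of miR-206 and miR-133b were 3801 bases apart on chromosome 9. Another hairpin gene, Mir1b, lay on chromosome 3, and its mature sequence was not compared. How far the miR-133a and miR-133b assays read each other's target was not tested.

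The rat miR-1 assay was determined in every stellate sample and in 1 non-stellate sample. In stellate 1 to 5 its raw Ct was 34.4, 31.9, 35.1, 34.9 and 34.3. In the non-stellate group it was 33.4 in sample 2 and undetermined in samples 1, 3, 4 and 5. In tissue it was 27.9 and 28.3. The sorted groups therefore differed in how often the assay was determined (5 of 5 against 1 of 5 wells), while the 1 determined non-stellate well lay within the range of the stellate wells.

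Fisher's exact test of these wells gave an unadjusted two-sided p of 0.0476. Of the 375 miRNA assays, 0.267% (1 assay, rno-miR-1 itself) reached an unadjusted p under 0.05 in this test, and 28 had a number of determined wells with which it can be reached. After Benjamini-Hochberg adjustment over all 375 assays the exact p was 1, and 0 assays passed. In the samples paired by replicate number, the assay was determined in the stellate sample alone in 4 of 5 pairs and in the non-stellate sample alone in 0 (replicate block, exact McNemar p = 0.125, a test that cannot reach 0.05 with 5 pairs). Without non-stellate 3 and 5 the exact Fisher p was 0.107, the smallest that this test can give with these wells. With wells at Ct 35 or later counted as undetermined, 4 stellate wells and 1 non-stellate well remained (exact p = 0.206). Without the filter on undetermined wells, and with these at 40, the log2 fold change was 3.74 ± 1.28 (SE, limma adjusted p = 0.576). Most of the stellate wells lay near Ct 35, and stellate samples also had more determined assays as a whole.

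**Figure D1:**
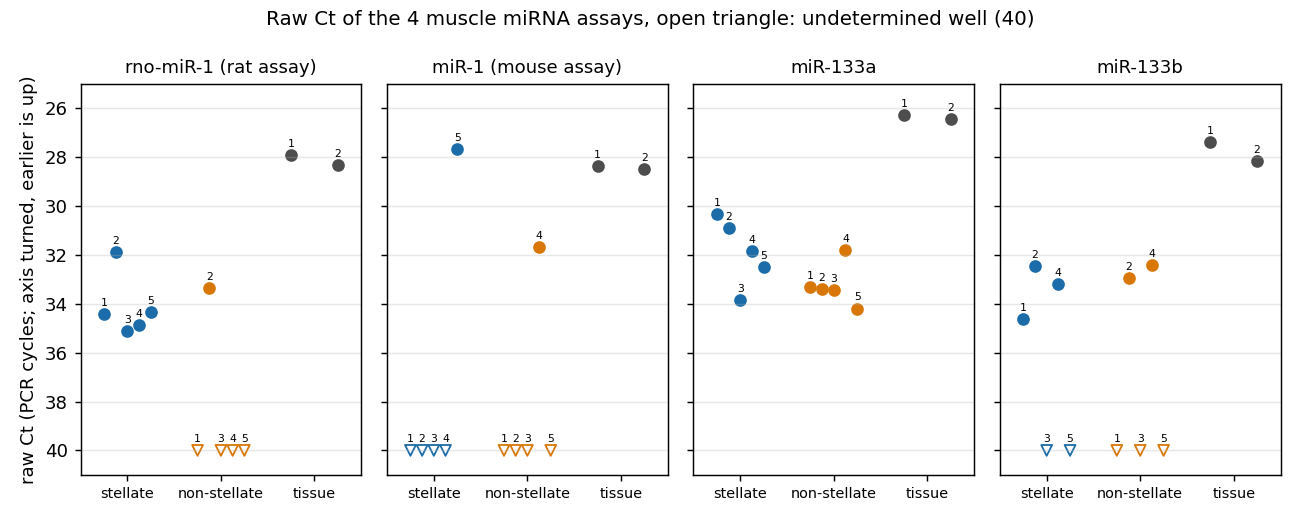
Raw Ct in PCR cycles (y axis, turned so that earlier wells are higher) of the 4 assays in 5 stellate, 5 non-stellate and 2 tissue samples, with 1 point per well, the replicate number above it and open triangles for undetermined wells at 40. The rat miR-1 assay has 5 determined stellate wells and 1 non-stellate well, while miR-133a is determined in all 12 samples.

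The mouse miR-1 assay gave another picture. It was determined in stellate 5 (Ct 27.7), in non-stellate 4 (Ct 31.7) and in both tissue samples (Ct 28.4 and 28.5), and it was undetermined in the other 8 sorted samples. The stellate 5 well was earlier than both tissue wells and stood 85th of the 257 determined assays of its sample. With 1 of 5 wells in each sorted group, the exact Fisher p was 1.

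In tissue the mouse and rat assays read nearly the same, with differences (mouse minus rat) of 0.459 and 0.182 cycles. The SD of a difference between 2 wells of one assay, taken from U6 (mean Ct 15.6 to 20.2), was 0.518 cycles, and both differences were smaller. Well-to-well error at the later Ct of the miR-1 assays was not measured. Whether both assays read one and the same sequence was not tested. In stellate 5, the 1 sorted sample with both wells determined, the difference was -6.67 cycles, the mouse well being the earlier. Among the other sorted samples, 5 had only the rat assay determined, 1 only the mouse assay and 3 neither. The 5 with only the rat assay were stellate 1 to 4 and non-stellate 2.

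With undetermined wells at 40, the difference averaged 3.41 cycles in stellate and -0.338 cycles in non-stellate samples. These means differed by 3.75 cycles (exact permutation, two-sided p = 0.357). Single samples ran from -6.67 to 8.12 cycles in the stellate group and from -8.31 to 6.62 cycles in the non-stellate group. In 9 of the 10 sorted samples at least 1 of these wells was at 40, so most of these differences are set by that value. The result rested on single samples. It was 6.27 without stellate 5 (exact permutation p = 0.0635), 5.49 without non-stellate 2 (exact permutation p = 0.206), and 1.76 without non-stellate 4 (exact permutation p = 0.698).

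**Figure D2:**
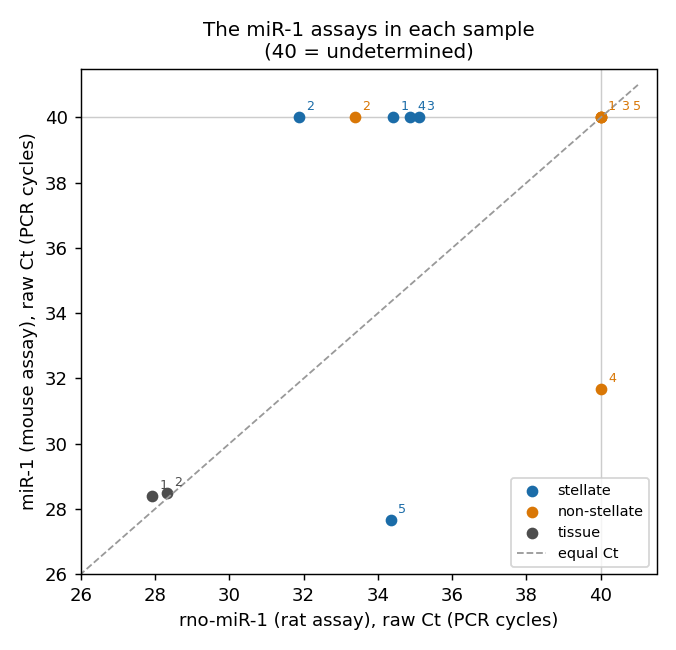
Raw Ct of the mouse miR-1 assay (y axis) against the rat miR-1 assay (x axis) in PCR cycles, with 1 point per sample, its replicate number beside it and the dashed line at equal Ct. The tissue samples lie on the line at about Ct 28, 5 sorted samples lie at 40 on the mouse axis alone, 3 non-stellate samples share the corner at 40 on both axes, and stellate 5 lies below the line, at a difference of -6.67 cycles.

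MiR-133a was the member measured best, with a determined Ct in all 12 samples. Its raw Ct was 30.3, 30.9, 33.9, 31.8 and 32.5 in stellate 1 to 5 and 33.3, 33.4, 33.5, 31.8 and 34.2 in non-stellate 1 to 5. In tissue it was 26.3 and 26.4. The sorted groups overlapped, and the tissue wells were earlier than all of them.

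Scaled to U6, the small nuclear RNA that the authors subtracted, miR-133a averaged 14.2 ± 1.25 cycles (SD, n = 5) in the stellate group and 14.7 ± 1.05 cycles (SD, n = 5) in the non-stellate group. Stellate over non-stellate, the log2 fold change was 0.53 ± 0.72 (SE). It did not pass in limma (adjusted p = 0.790), and the exact two-sided permutation p was 0.476. It was higher in stellate cells in 3 of 5 pairs, with log2 differences of 1.73, 2.92, 0.69, -0.65 and -2.03 in pairs 1 to 5. In this comparison 0% of the 222 tested assays passed, 16 had an unadjusted limma p under 0.05, and their median log2 fold change was 0.46. After median centring, which sets each sample's median over the common assays to 0, miR-133a changed by 0.14 (limma adjusted p = 0.909) and was higher in 2 of 5 pairs. MiR-133a thus lay 0.07 log2 units from the median of all tested assays, and 99 of them had a higher log2 fold change.

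MiR-133b, the neighbour of miR-206, was determined in 3 of 5 stellate and 2 of 5 non-stellate samples (exact Fisher p = 1). Its raw Ct was 34.6, 32.5 and 33.2 in stellate 1, 2 and 4, and 32.9 and 32.4 in non-stellate 2 and 4. In tissue it was 27.4 and 28.2. The determined wells of the sorted groups overlapped, and with 5 of 10 sorted wells at 40 no level could be tested.

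Where both miR-133 assays were determined, miR-133b minus miR-133a was 4.31, 1.55 and 1.37 cycles in stellate 1, 2 and 4 and -0.47 and 0.63 cycles in non-stellate 2 and 4. In tissue it was 1.08 and 1.71 cycles. Stellate 1 lay above the others, and the 2 non-stellate values were close to the U6 well-to-well SD of 0.518 cycles on either side of 0. The groups were not compared, since too few samples had both wells determined. A difference between assays also holds their unequal efficiency, so it is not a ratio of levels.

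The 10 sorted samples were also searched for assays that varied like miR-133a, among 175 other assays determined in all of them. After median centring the highest Pearson r belonged to miR-433 (0.817), miR-320 (0.647) and miR-383 (0.620), and with U6 scaling these were 0.856, 0.832 and 0.818. The points share samples, input and scaling, so these values only describe likeness over 10 samples.

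Tissue was compared with the sorted cells to place the muscle miRNAs in the intact cortex. With U6 scaling miR-133a was 10.3 and 10.9 in tissue, against 12.8 to 16.0 in stellate and 13.3 to 15.7 in non-stellate samples. The log2 difference was 3.88 ± 0.83 (SE), and it passed (limma adjusted p = 0.00144). Of the 222 tested assays 63.5% passed in either direction and 62.2% as higher in tissue, the median log2 difference was 3.02, and 78 assays had a larger difference than miR-133a.

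After median centring miR-133a was 2.60 and 2.75 in tissue, against 2.16 to 4.53 in stellate and 2.85 to 4.45 in non-stellate samples. Stellate 1 was then the sample with the most miR-133a, and the difference of 0.89 ± 0.62 (SE) did not pass (limma adjusted p = 0.250), while 23.9% of the tested assays passed as higher in tissue and 49.1% in either direction. With global mean scaling it was 1.21 (limma adjusted p = 0.114), and with Y1 alone 0.38 (limma adjusted p = 0.771). Scaling by any of the other references kept the call. As far as described, age, tracer injection, dissociation, sorting and extraction kit differed together between tissue and sorted cells, and RNA input may have differed too. These cannot be told apart, nor can fewer cells of a type and less RNA per cell.

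**Figure D3:**
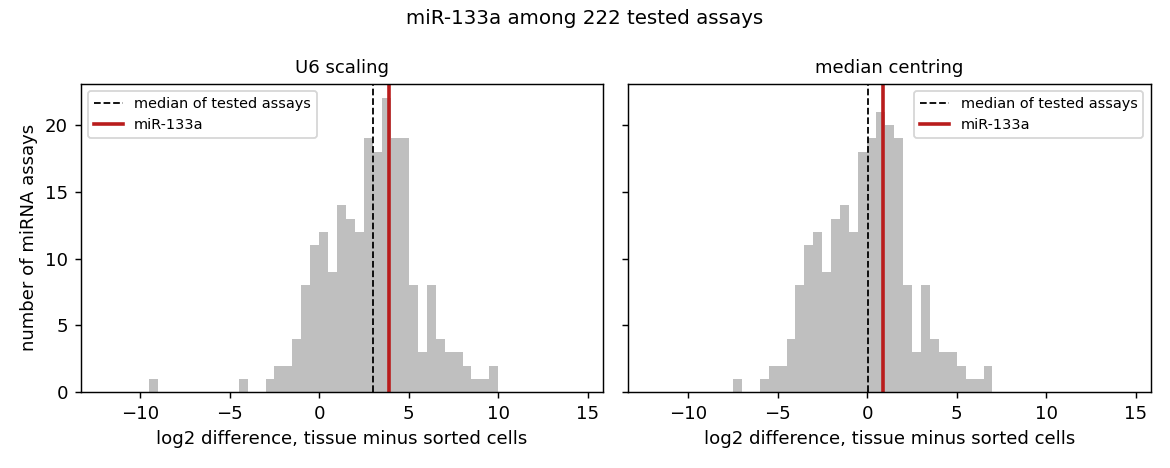
Number of assays (y axis) by log2 difference, tissue minus sorted cells (x axis), for the 222 tested miRNA assays with U6 scaling and with median centring, the dashed line marking their median and the red line miR-133a. MiR-133a lies at 3.88 with a median of 3.02 in the first panel and at 0.89 with a median of 0.03 in the second, in both within the bulk of the assays.

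The other members had too many undetermined sorted wells to pass the filter, and they are given by their determined wells. Without that filter, and with undetermined wells at 40, all 4 members passed as higher in tissue, beside 48.5% of the 375 assays (63.5% in either direction). With U6 scaling rno-miR-1 was 11.96 and 12.72 in tissue and 13.7 to 17.8 in the 6 determined sorted wells. MiR-133b was 11.4 and 12.6 in tissue and 13.9 to 17.8 in the 5 determined sorted wells. For miR-133a, rno-miR-1 and miR-133b both tissue samples lay below all 10 sorted samples, as they did for 66.8% of the 286 assays determined in both tissue samples. The mouse miR-1 assay was the exception, at 12.4 and 12.9 in tissue and 11.2 in stellate 5.

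After median centring these 3 members no longer had that separation, which 25.9% of the 286 assays had on that scale, and the mouse miR-1 assay had it on neither. The tissue values of rno-miR-1 (4.22 and 4.62) and miR-133b (3.68 and 4.47) were then inside the ranges of the determined sorted wells, 3.83 to 6.61 and 3.48 to 6.47. The muscle miRNAs were thus determined in every tissue well, but for rno-miR-1, miR-133a and miR-133b the order of tissue and sorted cells depended on the scale. For the mouse miR-1 assay stellate 5 was ahead of both tissue samples on both scales.

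**Figure D4:**
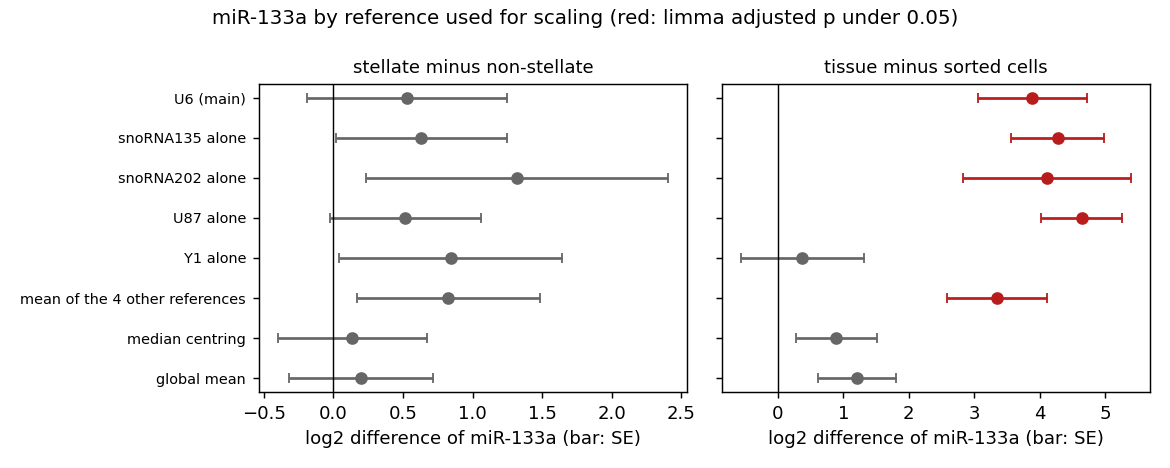
Log2 difference of miR-133a (x axis, with SE bars) under 8 scalings (y axis), stellate minus non-stellate on the left and tissue minus sorted cells on the right, in red where the limma adjusted p was under 0.05. None of the 8 passes on the left, and on the right median centring, global mean and Y1 alone do not pass.

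Other miRNAs known from muscle were read beside them. Of 5 listed names, 4 were on the card. MiR-208 and miR-499, which are encoded within heart myosin genes, were determined in both tissue samples (Ct 31.6 and 30.7, and 31.2 and 32.5). MiR-208 was determined in 3 stellate and 2 non-stellate samples and miR-499 in 0 and 1, and miR-208b was undetermined in all 12. MiR-486, which is abundant in muscle and in red blood cells, was determined in all 12 samples, at Ct 25.5 to 27.4 in stellate, 26.2 to 27.9 in non-stellate and 24.3 and 24.5 in tissue. Its log2 fold change between the sorted groups was 0.07 (limma adjusted p = 0.985). In tissue against sorted cells it was -0.11 with U6 scaling (limma adjusted p = 0.880) and -3.10 after median centring (limma adjusted p = 1.64e-05).

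Marker miRNAs of other cell types were summed in each sample, relative to the median assay, because tissue and sorted cells hold many types. The smooth muscle and vessel wall list (4 assays, among them miR-143 and miR-145) summed to 2.38 to 21.3 in stellate, 2.25 to 6.68 in non-stellate and 23.9 to 27.0 in tissue samples. It had a median log2 fold change of 1.42 between the sorted groups, beside 0.46 over all tested assays, and 0 of 4 passed. The blood and microglia list (6 assays) summed to 4.26 to 37.8, 1.71 to 5.32 and 12.7 to 13.4, with the red cell miR-451 and miR-142-5p undetermined in all 10 sorted samples and 0 of 4 tested assays passing between the sorted groups. The choroid plexus and ependyma list (5 assays) summed to 4.48 to 18.6, 3.68 to 5.68 and 5.15 to 6.88, with 0 of 4 tested passing. The neuron list (5 assays) summed to 190 to 428, 278 to 518 and 386 to 401, with 0 of 5 passing between the sorted groups. The oligodendrocyte list (2 assays) summed to 0 to 0.00903 in stellate, 0 to 0.287 in non-stellate and 0.287 to 0.410 in tissue samples, and none of its assays could be tested. MiR-219 was undetermined in all stellate samples and miR-338-3p in all non-stellate samples. The sums of the sorted groups thus come from different assays and do not compare oligodendrocyte RNA between them. Between the sorted groups the median log2 fold change was 0.64 for blood and microglia, 1.45 for choroid plexus and ependyma and 0.97 for neurons. In tissue against sorted cells, the assays higher with U6 scaling were 4 of 4 for vessel wall, 4 of 4 tested for blood and microglia, 5 of 5 for neurons and 1 of 4 tested for choroid plexus, where 1 was lower, beside 62.2% of all tested assays. After median centring 2, 1, 2 and 1 of them were higher, beside 23.9%, and 2 choroid plexus assays were lower. Assays differ in efficiency and lists in length, so a sum is compared between samples and not between lists. The 4 muscle assays summed to 0.0695 to 1.28, 0.0458 to 0.379 and 0.270 to 0.336, with stellate 5 highest through its mouse miR-1 well. The part of other cell types in the muscle miRNA wells was not tested.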

How the data were processed

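Ct was measured on a TaqMan rodent card of 384 wells after Megaplex reverse transcription and preamplification. The paper describes reactions A and B for each sample. Only values read from the column headers as card A were used here, so a name absent from this card may be on the other. The deposited raw values are Ct per well, on a log2 scale of PCR cycles that the authors had not normalized, with 40 in undetermined wells; the highest determined Ct was 38.2. The normalized log2 table deposited by the authors equals Ct minus the mean of the 4 U6 wells (largest difference 7.11e-15). Their deposited fold-change and limma tables hold their own comparisons and were not used.

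Log2 differences are minus differences in U6-scaled Ct. The 222 assays undetermined in at most 3 of 10 sorted samples were fitted with limma 3.58.1 in R 4.3.3 (two-sided, Benjamini-Hochberg over all 222, threshold 0.05), without a block between sorted groups and in all 12 samples for tissue. Of the members miR-133a passed this filter. Determined wells were compared by Fisher's exact test in scipy 1.17.1 and single values by exact permutation (smallest p 0.00794). The fit was checked on simulated data.

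The series' design text describes both sorted fractions as coming from 5 biological replicates, so equal replicate numbers were read as pairs, which no label states outright. Deviations from group means correlated at 0.331, 0.1195, 0.256, 0.155 and 0.0743 within pairs 1 to 5, with a mean of -0.0481 for different numbers. Wells were single except U6 (SD 0.366 cycles), so well counts and Ct stand in for depth. The named miRNAs were the members, the other muscle list, the 3 assays most like miR-133a and examples from the marker lists. Members and lists were chosen with earlier results of these data known.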

Additional observations from a re-analysis of the deposited data

Results flagged for a closer look

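Of 10 groups of 5 values tested, 4 held a sample whose gap to the nearest other was over Dixon's critical share of the group's range. For the mouse miR-1 assay these were stellate 5 (Ct 27.7) and non-stellate 4 (Ct 31.7), each alone among undetermined wells. For rno-miR-1 they were stellate 2 (Ct 31.9), against 34.3 to 35.1 in the other stellate samples, and non-stellate 2 (Ct 33.4), alone among undetermined wells. Each value is 1 well, and the cause was not tested. In the 3 groups with a lone determined well the gap is set by the value of 40 given to the others, so the share that chance would give does not apply to them. MiR-133a and miR-133b gave no such sample. The flagged values are raw Ct, in which input is not scaled out. With U6 scaling rno-miR-1 was 13.7 in stellate 2, against 16.1 to 17.8 in the other stellate samples. After median centring it was 3.83, against 5.60 to 6.61.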

How the results depend on the processing

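The count of members that differed between stellate and non-stellate cells was 0 under the main setting and under 25 alternatives. Only miR-133a was tested in these, except without the assay filter, where all 4 members were. The log2 fold change of miR-133a stayed above 0, from 0.14 to 1.32 (limma adjusted p 0.433 to 0.991), with the replicate block too (0.53, limma adjusted p = 0.811). Without non-stellate 3 and 5 it was 0.53 (limma adjusted p = 0.991). In tissue the 1 member tested under the main setting, miR-133a, passed, and 21 of 25 alternatives gave 1. The count was 0 with median centring, global mean and Y1 alone, where miR-133a was 0.89, 1.21 and 0.38, and 4 without the assay filter, where the other 3 rest on wells set to 40 and 238 of 375 assays passed. Over all alternatives miR-133a ran from 0.38 to 4.64 (limma adjusted p 3.58e-05 to 0.771). The cycles between the higher tissue sample and the nearest sorted sample, above 0 with U6 scaling (1.90 for miR-133a, 1.01 for rno-miR-1, 1.37 for miR-133b), fell below it with median centring (-0.60, -0.79 and -0.99), global mean (-0.40, -0.60 and -0.56) and Y1 alone (-2.24, -2.40 and -1.43), and for miR-133a with snoRNA202 alone (-0.94). For the mouse miR-1 assay these cycles were below 0 with U6 scaling (-1.74) and under all 7 alternatives (-5.36 to -2.15). The cause was not tested for the references.

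For determined wells 1 member passed an unadjusted exact p, and 0 did with Ct under 35 or under 32 as the limit, without non-stellate 3 and 5, or with the replicate block, the last 2 added once the values were known. The difference in rno-miR-1 wells of 4 was 3 under Ct 35, 1 under Ct 32 (exact p = 1), and 4 in the other 2. Leaving out each replicate kept the call. The mouse minus rat miR-1 difference kept its direction, from 1.76 to 6.27. With the replicate block it was 3.75 (sign-flip permutation p = 0.375, a test whose smallest p is 0.0625 with 5 pairs). Without non-stellate 3 and 5, a setting also added once the values were known, it was 3.97 (exact permutation p = 0.393). The alternative restricted to samples with both wells determined gave no value, since 1 sorted sample had both. Undetermined wells limit what can be said: 3 of the 4 members were undetermined in 4 or more of the 10 sorted samples.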
